A study of Homo sapiens with 8 samples.

Results

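Peaks of open chromatin at promoters were described in Raji cells, an Epstein-Barr virus positive human Burkitt lymphoma line. Wild-type cells were compared with cells in which a super-enhancer interval that holds the genes RGS1 and RGS13 had been targeted. The peaks were those of the authors' deposited ATAC table whose HOMER annotation reads promoter-TSS, and each was set beside the RNA table row of the same gene name. There were 8420 such peaks among 70312 in all (11.98%), assigned to 8011 gene names, with 18 peaks that carried no name and 361 genes that had more than 1. The wild-type group was the unedited B lymphoblast line, and the RGS-SE knockout group was made from it with Cas9 and a pair of guide plasmids aimed at chr1:192515157-192741754, followed by puromycin selection and picking of single clones. RNA-seq of polyA RNA and ATAC-seq of about 50000 cells were each done in 2 libraries per genotype, 8 libraries in all. The number of clones is not given in the sources used here, so the genotype and the clone cannot be told apart.

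The tables hold 1 fitted result per peak or gene and no value for each library. Fitted mean counts of each genotype were computed from the deposited mean and fold change, which takes each genotype as 2 of the 4 libraries of an assay. The spread between libraries enters only through the deposited standard error (SE), and since nothing ties the libraries to separate clones, p-values measure the spread between these libraries. The sign was taken as knockout over wild type, because the count of 1 peak inside the targeted interval, chr1:192609102-192609836, falls almost to nothing on the negative side of the authors' deposited table (fitted counts 622 and 0.186). That peak was picked as the most negative of the interval. The promoter peaks of RGS1 and RGS13, inside the same interval, were not called changed. The direction of the RNA fold changes is not named either, and was taken to be the same. With the opposite coding of an assay, all directions given here for that assay would be swapped. A peak or gene is called changed where the DESeq2 Wald test of the authors' deposited table gave an adjusted p under 0.05. A promoter peak was present for all 12 of the B cell markers listed, for 4 of 16 T and NK cell markers, for 2 of 15 myeloid markers and for 0 of 16 epithelial, fibroblast and erythroid markers.

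ATAC-seq uses a transposase that inserts into DNA not wrapped in nucleosomes, so the count in a peak measures how open the site is. Most promoters that are open in a cell lie in CpG islands, stretches rich in the dinucleotide CG, which tend to stay free of nucleosomes whether the gene is read strongly or weakly. Promoters poor in CG are more often opened by cell-type-specific factors, and loss of an open promoter usually goes with a silent gene. RNA level is also set by enhancers, elongation and RNA stability, which a promoter peak does not measure.

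The promoters on which the account below turns are shown first. Each sequence is the RefSeq window of 300 bp (GRCh38.p14) from 250 bp before to 50 bp after the annotated start, 5′ to 3′ on the gene's strand, with every CG in capitals. GLUL at chr1:182391292-182391591 (minus strand), L3MBTL1 at chr20:43514191-43514490 (plus strand) and TRIB3 at chr20:381093-381392 (plus strand) lost most of their accessibility and RNA in the knockout. ULBP3 at chr6:150069072-150069371 (minus strand) and ICAM3 at chr19:10339575-10339874 (minus strand) gained both. RGS1 at chr1:192575523-192575822 (plus strand) gained RNA over a promoter peak that was not called changed.
GLUL: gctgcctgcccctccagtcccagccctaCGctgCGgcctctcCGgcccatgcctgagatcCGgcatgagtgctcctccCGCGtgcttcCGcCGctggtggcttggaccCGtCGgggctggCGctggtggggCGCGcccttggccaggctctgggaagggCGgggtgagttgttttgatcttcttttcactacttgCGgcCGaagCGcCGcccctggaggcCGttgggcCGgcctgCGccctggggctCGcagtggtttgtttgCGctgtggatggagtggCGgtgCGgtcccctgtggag
L3MBTL1: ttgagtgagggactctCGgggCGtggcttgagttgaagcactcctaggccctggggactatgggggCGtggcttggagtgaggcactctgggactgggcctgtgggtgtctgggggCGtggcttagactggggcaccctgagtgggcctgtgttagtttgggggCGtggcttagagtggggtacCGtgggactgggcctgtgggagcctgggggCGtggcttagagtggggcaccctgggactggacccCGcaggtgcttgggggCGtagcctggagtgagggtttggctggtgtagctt
TRIB3: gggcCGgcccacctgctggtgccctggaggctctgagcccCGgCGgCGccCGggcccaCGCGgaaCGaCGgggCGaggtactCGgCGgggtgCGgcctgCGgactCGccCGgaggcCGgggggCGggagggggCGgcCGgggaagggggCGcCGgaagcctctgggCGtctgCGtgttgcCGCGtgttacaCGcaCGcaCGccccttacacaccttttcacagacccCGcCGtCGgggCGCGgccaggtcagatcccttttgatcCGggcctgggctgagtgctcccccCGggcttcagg
ULBP3: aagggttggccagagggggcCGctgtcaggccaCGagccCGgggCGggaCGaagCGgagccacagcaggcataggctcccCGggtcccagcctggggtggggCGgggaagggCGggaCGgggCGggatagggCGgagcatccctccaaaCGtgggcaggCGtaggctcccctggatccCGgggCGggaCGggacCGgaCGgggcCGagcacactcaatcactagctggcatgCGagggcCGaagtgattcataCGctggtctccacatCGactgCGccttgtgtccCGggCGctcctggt
ICAM3: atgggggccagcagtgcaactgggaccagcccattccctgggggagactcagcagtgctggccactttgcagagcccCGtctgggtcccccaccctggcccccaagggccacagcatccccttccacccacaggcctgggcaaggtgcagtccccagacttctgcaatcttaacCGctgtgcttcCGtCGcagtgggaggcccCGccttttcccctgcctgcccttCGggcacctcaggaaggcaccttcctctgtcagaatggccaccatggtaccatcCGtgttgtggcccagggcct
RGS1: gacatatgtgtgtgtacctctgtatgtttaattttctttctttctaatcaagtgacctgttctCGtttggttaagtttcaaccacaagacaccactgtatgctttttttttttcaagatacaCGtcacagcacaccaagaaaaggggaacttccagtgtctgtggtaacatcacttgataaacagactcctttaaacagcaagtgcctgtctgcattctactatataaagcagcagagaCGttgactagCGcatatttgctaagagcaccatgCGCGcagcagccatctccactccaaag
The TRIB3 window held 36 CG, the ULBP3 window 27 and the GLUL window 25, beside a median of 27 over the 6092 promoter peaks with a window. The L3MBTL1 window held 9, the ICAM3 window 7 and the RGS1 window 6. Windows rich and poor in CG thus stood among these losses, and likewise among these gains.

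Promoter peaks were stronger and more precisely measured than the other peaks as a whole, and 5′ UTR peaks were much like them, with a median mean of 705. The median mean normalised count of promoter peaks was 706, against 95.6 for all other peaks, and they held 35.6% of the summed count. Their median SE was 0.0998 log2 units, against 0.271 for the other peaks. By the authors' deposited table, most promoter peaks (81.9%) lay within 0.5 log2 units of no change, against 56.4% of intron peaks and 54.3% of intergenic peaks. Among peaks with a mean between 500 and 1000, where precision was alike, 30.6% of promoter peaks were called changed, against 45.4% of intron peaks and 49.1% of intergenic peaks. This order did not hold for weak peaks. Between 100 and 200 the shares were 37.4%, 37.5% and 39.3%. Under a mean of 100 it was reversed, with 39.1% of promoter peaks called, against 31.4% of intron peaks and 32.0% of intergenic peaks.

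In the knockout 1198 promoter peaks were called higher (14.2%, beside 20.4% of all peaks) and 1681 were called lower (19.96%, beside 15.5%), in all 2879 (34.2%, beside 35.9%). Most of the changes were small: the median log2 fold change was 0.66 over the promoters called higher and -0.36 over those called lower. A change of at least 1 log2 unit was called higher at 324 promoters (3.85%, beside 11.0% of all peaks) and lower at 216 (2.57%, beside 5.79%). At 3 log2 units or more, 44 promoters were called higher (0.523%, beside 0.895%) and 46 lower (0.546%, beside 0.273%). The share of promoters lost to this extent was thus above that of all peaks, while the share gained was below it. Calls varied with the assumed noise: with Wald statistics scaled to a robust SD of 1, 478 promoter peaks were called.

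Among the 7073 genes with a promoter peak and an RNA row, 6740 were tested for RNA. RNA was called changed for 1690 (25.1%, beside 19.2% of all tested genes), higher for 843 (12.5%, beside 9.89%) and lower for 847 (12.6%, beside 9.28%). Their RNA was also more abundant, with a median mean count of 1034 over the 6740 genes. Tested genes without a promoter peak had 73.8, and 15.3% of them were called. The part of RNA level in this difference was not tested. Of 871 genes whose promoter was called higher, RNA was called higher for 382, lower for 30 and not called for 459. Of 1389 genes whose promoter was called lower, RNA was called lower for 382, higher for 69 and not called for 938. The same direction was thus called for 764 genes and opposite directions for 99. Across the 6740 genes the log2 fold changes of promoter and RNA had a Pearson correlation of 0.60 and a Spearman correlation of 0.37, given as a description, since genes share libraries and neighbourhoods.

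**Figure D1:**
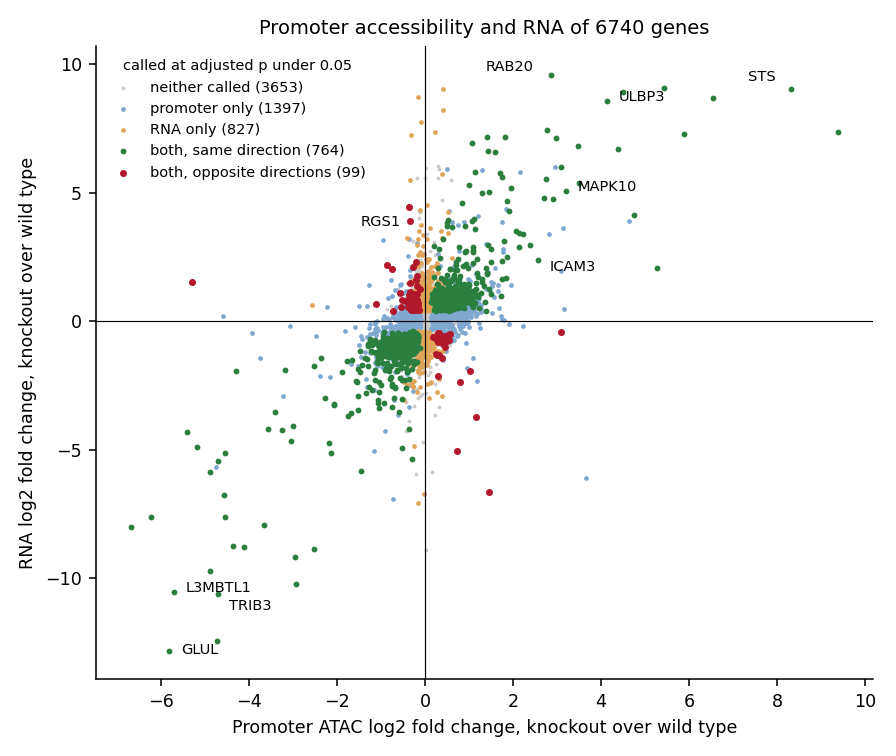
Each point is 1 of 6740 genes, with the deposited log2 fold change of its promoter peak on the horizontal axis and of its RNA on the vertical axis, both knockout over wild type, coloured by the calls of the authors' DESeq2 Wald tests. The 764 genes called in the same direction run from lower left to upper right, and 827 genes called by RNA alone lie in a vertical band near a promoter change of 0.

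RNA calls were then counted by the size of the promoter change. Where the promoter lay within 0.2 log2 units of no change (4112 genes), RNA was called higher for 8.85% and lower for 9.29%. Between 0.5 and 1 (382 genes), RNA was called higher for 46.9% and lower for 1.57%. Between -1 and -0.5 (302 genes), it was called lower for 47.4% and higher for 1.99%. At 3 or more, 14 of 20 genes had higher RNA, and at -3 or less, 24 of 31 had lower RNA.

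**Figure D2:**
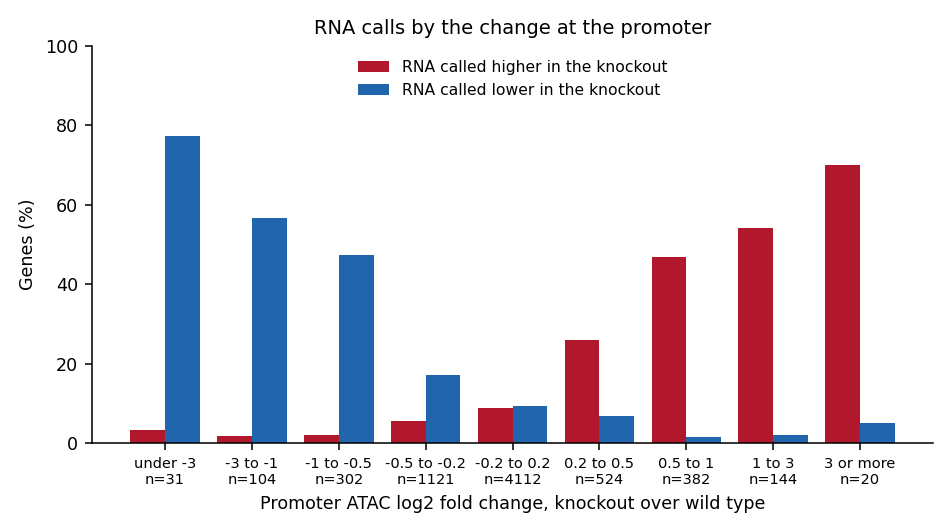
Bars give the percentage of genes whose RNA was called higher or lower in the knockout, by the log2 fold change of the promoter peak, with the number of genes under each pair of bars. The share with lower RNA falls from 77.4% to 9.29% as the promoter change goes from under -3 to near 0, and the share with higher RNA then climbs to 70.0% of genes at 3 or more.

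Promoters with a mean count of at least 100 were named by the size of their loss, a choice that favours promoters open in wild type. GLUL encodes glutamine synthetase, which makes glutamine from glutamate and ammonia. Its promoter peak had a fitted count of 454 in wild type, against 8.04 in the knockout (log2 fold change -5.82, SE 0.39, DESeq2 Wald adjusted p 2.54e-47 by the authors' deposited table), and its fitted RNA count went from 1265 to 0.175. L3MBTL1, a chromatin-compacting reader of methylated histones, had 1658 and 31.7 at its promoter (log2 fold change -5.71, SE 0.20, DESeq2 Wald adjusted p 8.50e-178 by the authors' deposited table) and 258 and 0.175 in RNA. TRIB3, a pseudokinase induced by nutrient and endoplasmic reticulum stress, had 450 and 17.1 at its promoter and 276 and 0.176 in RNA. No RNA fold is given for these genes, because the fitted knockout count is under 3 counts and the fold then depends on the fit.

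ACADS, a mitochondrial short-chain fatty acid dehydrogenase, went from 313 to 10.5 at its promoter and from 85.2 to 1.44 in RNA. TSPAN15, a tetraspanin that guides the sheddase ADAM10, went from 257 to 12.5 at its promoter and from 74.99 to 0.175 in RNA. PRXL2A, a peroxiredoxin-like redox protein, went from 211 to 12.1 and its RNA from 417 to 0.955. ZFP82, a zinc finger gene, kept more of both, with 218 and 20.4 at its promoter and 263 and 22.9 in RNA. For each of these 4 genes the promoter and the RNA were called lower by the DESeq2 Wald tests of the authors' deposited tables. Of the 46 promoters lower by at least 3 log2 units, 32 had tested RNA, which was called lower for 24, higher for 1 and not called for 7. KCNJ2, a potassium channel gene, was among the last: its promoter went from 269 to 10.0. Its pooled RNA was low, at 0.135 CPM (the mean normalised count scaled to the sum of all genes). The fitted RNA counts were 8.69 in wild type and 0.172 in the knockout (DESeq2 Wald adjusted p 0.136 by the authors' deposited table). The RNA estimate thus also fell, without being called.

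Gains named by their size likewise favour a low count in wild type, while the median mean count over all 1198 promoters called higher was 512. ULBP3, a stress ligand that natural killer cells recognise, had fitted promoter counts of 33.3 in wild type and 582 in the knockout (log2 fold change 4.13, SE 0.22, DESeq2 Wald adjusted p 2.90e-75 by the authors' deposited table), and its RNA went from 0.504 to 190. RAB20, a small GTPase of endosomes and phagosomes, had 59.1 and 431 at its promoter and 0.190 and 146 in RNA. CCL5, a chemokine that draws T cells, had 29.1 and 196 at its promoter and 1.84 and 85.6 in RNA. ICAM3, an adhesion molecule of resting leukocytes, had 39.1 and 231 at its promoter (log2 fold change 2.56, SE 0.25) and 86.5 and 455 in RNA (log2 fold change 2.40), with adjusted p of 1.97e-22 and 6.56e-11 by the DESeq2 Wald tests of the authors' deposited tables.

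At 3 further genes a moderate promoter change stood beside a larger RNA change. CTTN, which encodes the actin-binding protein cortactin, had 70.8 and 259 at its promoter, a 3.65-fold change, and a 25.7-fold change in RNA. DLG3, a scaffold protein of cell junctions, had 129 and 499 at its promoter, 3.87-fold, and 36.7-fold in RNA. SAMD9, an interferon-induced antiviral gene, had 57.0 and 197, 3.46-fold, and 8.70-fold in RNA. All 3 were called higher in both of the authors' deposited tables, and so was IRF7, the regulator of interferon genes, at 640 and 1356 (2.12-fold) with 4.80-fold in RNA. Of the 44 promoters higher by at least 3 log2 units, 25 had tested RNA, which was called higher for 16, lower for 1 and not called for 8. Their median mean count was 57.6, against 111 for the promoters lower by the same measure.

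**Figure D3:**
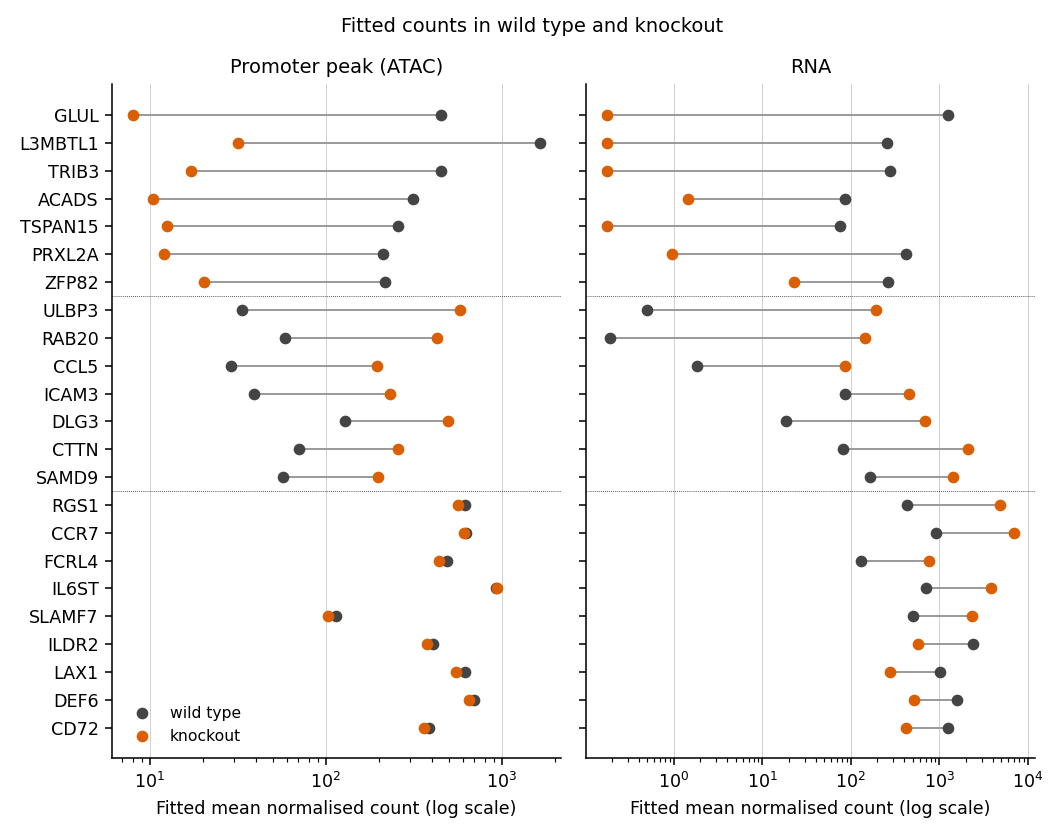
Fitted mean normalised counts in wild type and knockout, on log axes, of the promoter peak (left) and of RNA (right) for 23 genes in 3 blocks: promoters lost, promoters gained, and promoters not called changed although RNA was. In the lowest block the promoter points nearly coincide, as for RGS1 at 618 and 562, while the RNA points stand apart.

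A large group of genes changed in RNA over a promoter that was not called. Of 357 genes whose RNA rose by at least 1 log2 unit, the promoter was called higher for 204, lower for 17 and not called for 136, and 106 of the last were also within 0.2 log2 units of no change. Of 337 genes whose RNA fell by as much, the promoter was called lower for 203, higher for 11 and not called for 123, with 90 of these within 0.2. RGS1, a brake on chemokine receptor signalling, showed this most plainly: its promoter had 618 and 562 (log2 fold change -0.14, SE 0.12, DESeq2 Wald adjusted p 0.381 by the authors' deposited table), and its RNA rose 11.2-fold. CCR7, the receptor that guides lymphocytes to lymph nodes, had 627 and 607 at its promoter and a 7.58-fold RNA change.

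FCRL4, an inhibitory receptor of memory B cells, had 489 and 439 at its promoter and a 5.91-fold rise in RNA. IL6ST, the signalling subunit shared by interleukin-6 family receptors, had 931 and 945 and a 5.41-fold rise. SLAMF7, a surface receptor of plasma cells and natural killer cells, had 115 and 104 and a 4.55-fold rise. In the other direction RNA fell 4.09-fold for ILDR2, 3.72-fold for the lymphocyte adaptor LAX1, 3.08-fold for the Rac activator DEF6 and 2.99-fold for the B cell co-receptor CD72. Their promoters changed by at most 1.13-fold and none of the 4 was called in the authors' deposited ATAC table. All promoters of this group were chosen for a flat peak, so their flatness is a description.

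Near the targeted interval no promoter peak was lost. RGS1 and RGS13 lie inside the labelled interval, and their promoter peaks remained, that of RGS13, a germinal centre regulator of the same family, at 204 and 198 (not called, adjusted p 0.888 by the Wald test of the authors' deposited ATAC table). RGS2, the next family member, had 1392 and 1105 (log2 fold change -0.33, adjusted p 0.000115 by the same test by the authors' deposited table), and the RNA of RGS2 was not called. UCHL5, a proteasome-associated deubiquitinase, had 1615 and 1698 and was not called. RNA of RGS13 and of UCHL5 was not called either.

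Other promoters changed over steady RNA. EIF3I, a subunit of a translation initiation factor, had 68.4 and 258 at its annotated promoter peak and 5235 and 4881 in RNA. SKAP2, an adaptor of leukocyte adhesion, had 76.3 and 252 at a promoter peak and 3159 and 3604 in RNA. ARHGAP24, a GTPase-activating protein, had 160 and 553, with 291 and 300 in RNA. RFX3, a regulator of cilium genes, went the other way at its promoter, from 1948 to 882, with 1003 and 979 in RNA. Its local median was -1.07, and centred on it the promoter change was -0.07. In each case the promoter was called and the RNA was not in the authors' deposited tables. These genes were chosen as promoter changes without an RNA call.

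In 99 genes the promoter and the RNA were called in opposite directions. ITPR2, a calcium channel of the endoplasmic reticulum chosen after its values were seen, was one of them: its weak promoter peak went from 79.5 to 2.02 while its RNA rose by 1.54 log2 units. ATP2B4, a plasma membrane calcium pump, had 539 and 296 at its promoter, and its RNA rose 4.55-fold. JUP, a plakoglobin of cell junctions, had 155 and 268 at its promoter, and its RNA fell 5.13-fold. INSIG1, a brake on cholesterol synthesis, had 1939 and 1476 with RNA up 1.77-fold, and EIF4A2, an RNA helicase of translation initiation, had 582 and 406 with RNA up 1.75-fold. Under the scaled statistics 0 genes were called in opposite directions and 104 in the same direction.

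A promoter peak that covers the starts of 2 protein-coding genes on opposite strands can be set beside the RNA of both. There were 943 such peaks, with a median mean count of 1090, against 768 for peaks over starts on 1 strand, and 10.5% were called higher and 19.1% lower, beside 13.3% and 20.5% of the peaks over starts on 1 strand. In 862 pairs both genes had tested RNA, and in 55 both were called, 53 of them in the same direction. Of all 6740 tested genes with a promoter peak, 25.1% were called, and no count expected for pairs was computed. Of 17 pairs with a promoter change of at least 1 log2 unit, both genes were called in its direction in 7 and 1 gene in 6. The 7 pairs lay on chromosomes 8, 16 and X. Paired genes share their chromosome stretch as well as the peak, and promoters moved with such stretches (below). Following the peak and moving with the stretch therefore cannot be told apart in these counts. The peak between STS, a steroid sulfatase, and PUDP, a nucleotide phosphatase, on chromosome X went from 1.95 to 619 in fitted count, and the RNA of both genes was called higher. The non-promoter peaks within 1 Mb of it had a median log2 fold change of 7.001, against 8.31 for the promoter itself, whose wild-type count is under 3 counts, so that its fold depends on the fit. The peak between NAA60, an acetyltransferase, and the zinc finger gene ZNF597 had a log2 fold change of 6.93 in the authors' deposited table, against a median of 1.11 around it, and RNA was called higher for both genes, by 0.99 log2 units for NAA60.

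Of the 361 genes with more than 1 promoter peak, 140 had at least 1 called and 1 not called, 8 had peaks called in both directions, 34 had all called higher, 33 all lower and 148 none called. SESN3, a stress-induced regulator of growth signalling, shows a mixed case. Its main promoter peak, with a mean of 2349, had a log2 fold change of -0.08 and was not called. A second promoter peak with a mean of 101 had 2.98 (SE 0.31, DESeq2 Wald adjusted p 1.45e-19 by the authors' deposited table), and SESN3 RNA rose by 1.87 log2 units.

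Promoters also moved with the chromosome stretch they lie on. For each promoter the median log2 fold change of the non-promoter peaks within 1 Mb was taken as its local median, where at least 10 such peaks were present (8389 promoters). The local median was at least 0.2 in size for 1759 promoters (20.9%), and these held 37.8% of all called promoters. Where it was at least 0.2 higher (922 promoters), 61.1% were called higher and 6.83% lower. Where it was at least 0.2 lower (837 promoters), 50.7% were called lower and 4.54% higher. In the remaining 6630 promoters, 8.93% were called higher and 17.9% lower. What moves these stretches was not tested.

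The stretches were long. On chromosome 6, 40.7% of 460 promoters were called higher, and every 20 Mb stretch from 60 Mb on had a positive promoter median, up to 0.57. On chromosome 16, 131 of 142 promoters in the first 20 Mb were called higher and 0 lower (median 0.93), while 65 of 74 between 60 and 80 Mb were called lower (median -0.57). On chromosome 8, 57 of 59 promoters between 20 and 40 Mb were called higher (median 0.71) and 46 of 49 beyond 140 Mb lower (median -0.90). On chromosome 9, all 26 promoters of the first 20 Mb were called lower (median -1.14). Most of these promoter medians lay close to those of the other peaks of the same stretch.

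**Figure D4:**
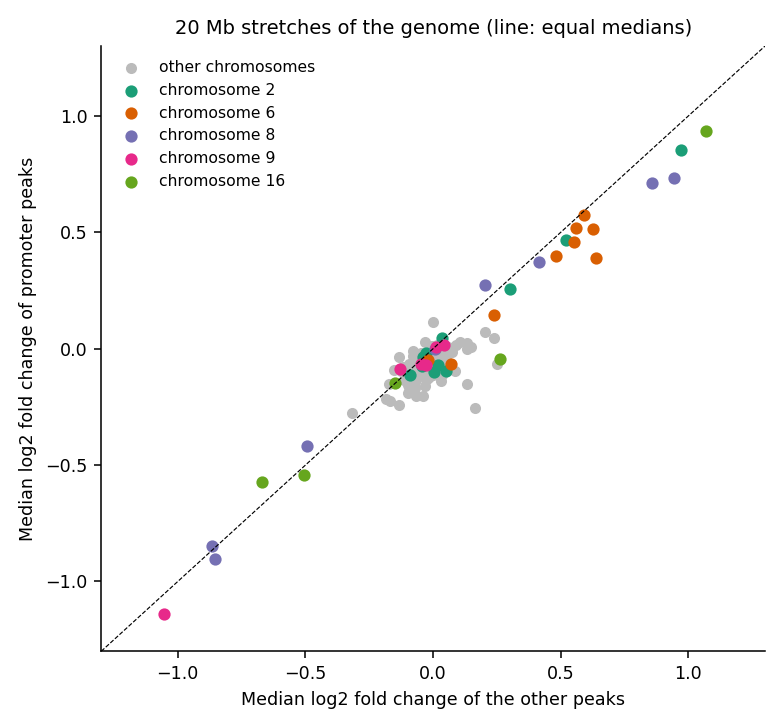
Each point is a 20 Mb stretch with at least 10 promoter peaks and 10 other peaks, with the median log2 fold change (knockout over wild type) of its other peaks on the horizontal axis and of its promoter peaks on the vertical axis, coloured for 5 chromosomes. Stretches of chromosomes 2, 6, 8, 9 and 16 lie along the line of equal medians, from -1.14 to 0.93 on the promoter axis, while the rest cluster near 0.

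The genes called in both assays were split by stretch, and the difference between the groups was not tested. Where the local median was at least 0.2 in size, 445 genes were called in both assays in the same direction and 24 in opposite directions. Elsewhere the counts were 317 and 74. Away from these stretches RNA was called higher for 28.9% of 398 genes with a higher promoter and lower for 20.5% of 987 genes with a lower promoter. Of the 44 promoters higher by at least 3 log2 units, 27 (61.4%) lay where the local median was under 0.2 in size. Of 44 lower by as much and with a local median, 30 did (68.2%). The share over all promoter peaks was 78.7%, so the largest changes lay in such places less often than promoters at large. GLUL, L3MBTL1, TRIB3 and ACADS were among the 30, with local medians between -0.17 and 0.04. RAB20, CCL5 and ICAM3, whose promoters rose by 2.56 to 2.87 log2 units, had local medians between -0.06 and 0.06, and ULBP3 had 0.56.

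Gene lists of pathways and cell programmes had 365 genes with a promoter peak, of which 117 were called (32.1%, beside 34.2% of all promoter peaks), 43 higher and 74 lower, and 15 changed by at least 1 log2 unit. After each promoter was centred on its local median, 60 of the 117 calls held in the same direction, among 105 calls in all. Centring took the calls of cholesterol synthesis from 5 to 11, of the integrated stress and unfolded protein responses from 5 to 9 and of MHC class I from 0 to 3. The median after centring was -0.16 over the 922 promoters on raised stretches and 0.09 over the 837 on lowered ones. Promoters as a set thus overshot, and a value or call after centring need not be particular to a gene. NF-kB, CD40 and LMP1 targets, genes that B cell activation and the viral protein LMP1 induce, had 2 of 19 promoters called higher and 4 lower (median -0.09). RNA was called higher for 11 of these 19, of which the promoter was called higher for 1, lower for 2 and not called for 8. The 1 was FCER2, the activation marker CD23, at 562 and 966 with a 7.47-fold rise in RNA. TNF, the inflammatory cytokine, had 267 and 162 at its promoter, called lower, and its RNA was not called.

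MHC class II genes, which present antigen to T cells, had 3 of 14 promoters called higher and 1 lower (median 0.09), and RNA called higher for 11 of the 14. CIITA, the master activator of the class, had 782 and 1396 at its promoter with a 2.62-fold rise in RNA. Its local median was 0.98, and centred on it the promoter change was -0.15. HLA-DRB1 had 698 and 850 at its promoter with a 2.67-fold rise in RNA. MHC class I and peptide loading genes had 0 of 11 promoters called, with log2 fold changes from -0.16 to 0.17, while RNA was called higher for 5 and lower for 2. Reads of HLA genes can be shared between near-identical copies.

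The plasma cell programme had 3 of 15 promoters called higher and 6 lower, with RNA called higher for 8 of the 15. PRDM1, the repressor that drives plasma cell differentiation, had a promoter log2 fold change of 0.70 in the authors' deposited table and a 4.88-fold rise in RNA. TNFRSF17, the survival receptor BCMA, had 1.19 at its promoter and a 3.71-fold rise in RNA. Both lie on raised stretches, with local medians of 0.63 and 1.19, and centred on these their promoter changes were 0.07 and 0.00. DERL3, a factor of protein disposal from the endoplasmic reticulum, had a promoter log2 fold change of 0.60 in the authors' deposited table with a local median near 0, and its RNA was not called. Of the promoters called lower, that of JCHAIN, the joining chain of secreted antibodies, went from 149 to 69.0 (log2 fold change -1.11, SE 0.25, DESeq2 Wald adjusted p 8.36e-05 by the authors' deposited table), with a local median of 0.02, while JCHAIN RNA rose 1.60-fold.

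Core B cell transcription factors had 3 of 13 promoters called higher and 5 lower. IRF8, which shapes germinal centre B cells, had 2440 and 1504 at its promoter and a 1.79-fold fall in RNA on a stretch with a local median of -0.51. TCF4, an E protein, had 1014 and 638 at its promoter with a local median of 0.02, and its RNA was not called. Germinal centre genes had 3 of 17 higher and 4 lower, among them ELMO1, an activator of cell migration, at 473 and 813. B cell receptor signalling genes had 2 of 17 higher and 4 lower. MS4A1, which encodes CD20, had 1871 and 1571 at its promoter while its RNA rose 2.09-fold.

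Immediate early and AP-1 genes, which respond within minutes to receptor signals, had 3 of 19 promoters called higher and 9 lower (median -0.17), the largest share called of the lists with at least 10 promoters (63.2%). NR4A1, an orphan nuclear receptor induced by antigen receptor signals, had 807 and 275 at its promoter (log2 fold change -1.55, SE 0.12, DESeq2 Wald adjusted p 1.33e-35 by the authors' deposited table) and 56.3 and 10.9 in RNA. SPRED1, a brake on RAS signalling, had 887 and 602 and was called lower in RNA. EGR1, a zinc finger factor, and DUSP1, a phosphatase of MAP kinases, were called higher at the promoter by 1.15-fold and 1.32-fold, with RNA not called. After centring, 10 of the 12 calls held.

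DNA replication genes had 1 of 25 promoters called higher and 5 lower, and RNA was called lower for 10 of the 25. MCM4, a helicase subunit that shares its promoter peak with PRKDC, had 2864 and 1411 at its promoter and a 1.74-fold fall in RNA, with a local median of -0.45. Mitosis genes had 3 of 19 higher and 2 lower, and CENPA, the centromeric histone, had 1474 and 874 with a 2.28-fold fall in RNA. Cholesterol synthesis genes had RNA called higher for 12 of 20, with the promoter called higher for 1 of these 12, lower for 1 and not called for 10. The exception, FDFT1, which makes squalene, had a promoter log2 fold change of 0.73 in the authors' deposited table and a local median of 0.83.

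Interferon response genes had 4 of 16 promoters called higher and 1 lower. USP18, which removes ISG15 from proteins, had a promoter count of 9.22 and 69.5 and an RNA count of 3.54 and 94.9. Genes of the integrated stress and unfolded protein responses had 0 of 17 called higher and 5 lower: TRIB3, GLUL, the asparagine synthetase gene ASNS at 889 and 607, the stress-induced factor gene ATF3 at 820 and 648, and HERPUD1, a factor of endoplasmic reticulum protein quality control, at 1786 and 1563. Chromatin regulators had 4 of 23 higher and 6 lower, with TET2, a DNA demethylase, at 322 and 128, and DNMT3A, a DNA methyltransferase, at 245 and 475. RNA of TET2 and DNMT3A was not called. Genes of RGS and G protein signalling had 0 of 18 higher and 4 lower, and chemoattractant and positioning receptors had 0 of 9 called. GPR183, an oxysterol receptor of that list, had 131 and 172 at its promoter and a 9.35-fold rise in RNA.

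The remaining lists had these shares of promoters called: 6 of 12 for B cell markers (1 higher and 5 lower), 3 of 15 for BCL2 family and apoptosis genes, 3 of 19 for glycolysis and hypoxia, 3 of 19 for p53 targets, 7 of 18 for MYC targets and ribosome biogenesis, 6 of 20 for the nuclear respiratory chain and 5 of 14 for adhesion and motility. Over all promoter peaks 14.2% were called higher and 19.96% lower, in all 34.2%. Among families chosen by name, 27 of 253 promoters of genes named ZNF were called higher and 67 lower. Promoters of cytosolic ribosomal protein genes, pseudogenes included, had 4 of 61 higher and 17 lower. Promoters of long intergenic noncoding RNA genes had 38 of 173 higher and 31 lower, and those of microRNA genes 26 of 131 and 28. Peaks of these last 2 families were weaker, with a median mean of 258 and 182, against 706 over all promoter peaks.

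CG content and motifs were described by call, with no test. Windows were found for 6092 promoter peaks (72.4%), with a median GC content of 65.7%. The ratio of observed to expected CG was at least 0.6 in 84.3% of all windows, in 85.6% of those not called, in 57.8% of 187 higher by at least 1 log2 unit and in 69.8% of 116 lower by as much. In windows with a ratio from 0.2 to 0.4, 12.2% were higher by at least 1 log2 unit and 3.20% lower, and in those from 0.8 to 1 the shares were 2.00% and 1.47%. Peaks with few CG also had lower counts, with a median mean of 246 for the former and 885 for the latter, and low counts carry larger errors. The part of peak height in this difference was not tested.

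**Figure D5:**
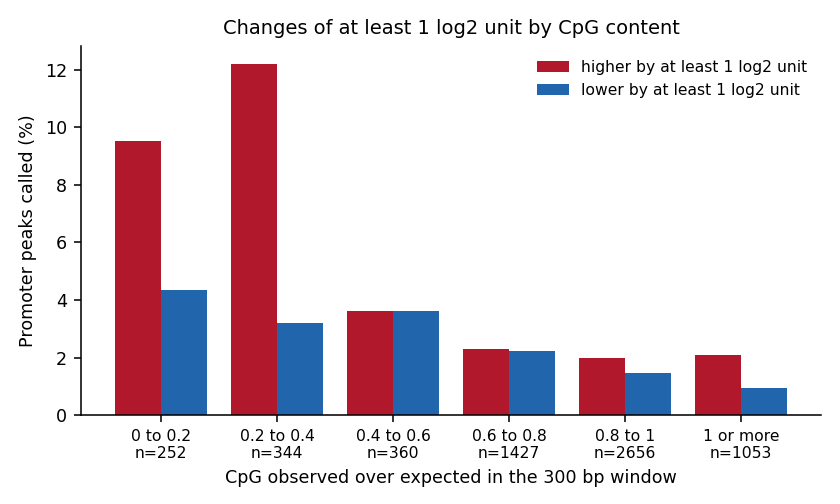
Bars give the percentage of promoter peaks called higher or lower by at least 1 log2 unit, by the ratio of observed to expected CG in the 300 bp window, with the number of windows under each pair. The share higher goes from 12.2% at a ratio of 0.2 to 0.4 down to 2.00% at 0.8 to 1.

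Motifs were searched as exact letters on both strands. The ETS site CCGGAAG was in 20.8% of all windows, in 9.09% of those higher by at least 1 log2 unit and in 15.5% of those lower by as much. The YY1 site AAGATGGC was in 6.22%, 2.14% and 1.72%, and the GC box GGGCGG, which can overlap CG-rich letters of other motifs, in 72.6%, 58.3% and 58.6%. The octamer ATGCAAAT, bound by the B cell factors OCT1 and OCT2, was in 1.59%, 4.81% and 2.59%, the STAT-type GAS element TTCNNNGAA in 5.71%, 10.7% and 6.90%, and the AP-1 site TGANTCA in 3.74%, 6.95% and 3.45%. The NF-kB motif was in 8.91%, 6.42% and 7.76%. Shares at 1 log2 unit rest on few windows, 12 higher and 9 lower for NF-kB, and 9 and 3 for the octamer. Over all 761 windows called higher and 1206 called lower, the NF-kB motif was in 11.6% and 8.04%. By the same measure the GAS element was in 5.78% and 5.31%, and the octamer in 2.37% and 1.41%. Of the windows shown above, that of RGS1 holds the NF-kB motif and the TATA box TATAAA, which was in 4.69% of all windows, that of ULBP3 holds 6 GC boxes and an AP-1 site, and that of L3MBTL1 none of the motifs searched. These shares describe letters in the reference and show no binding.

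The promoter class has an edge set by the annotation. Promoter peaks centred 800 bp or more before the start numbered 189, with a median mean of 147 and a median log2 fold change of -0.03. Peaks of other classes up to 1200 bp before a start numbered 231, with 154 and -0.02. A further 3396 peaks within 1000 bp of a start carry another class, mostly intron (1757), 5′ UTR (613) or exon (545), and 32.4% of them were called.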

How the data were processed

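RNA-seq and ATAC-seq of Raji cells were compared between wild type and RGS-SE knockout, 2 libraries per genotype and assay. Tools listed in the submitters' processing notes are STAR, Bowtie2, featureCounts, HOMER, DESeq2 and the trimmers cutadapt, Trim Galore and Trimmomatic, and the builds are GRCh38 and hg38, with no versions, settings or peak caller. The tables are DESeq2 results of the authors, per the file headers: the signal is the mean normalised count, the fold change and its SE are on the log2 scale, the score is the Wald statistic, and each p-value and adjusted p-value is that of the Wald test. The other unit in the authors' deposited ATAC table is the distance to the nearest start in bp. All 70312 peaks lay inside the hg38 chromosomes, and Benjamini-Hochberg values recomputed over all peaks differed from the deposited ones by at most 1.42e-15. No filter was added to the deposited tests. Depth per library is not in these tables, so precision is read from the SE.

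Where a gene had several promoter peaks, that with the highest mean stood for it. Of 25377 RNA rows, 258 with a repeated or missing name were left out of the matching. The tables planned for a quasi-likelihood count test held no counts, and the authors' tests were used. Python 3.11.15, numpy 2.4.6, pandas 2.3.3, scipy 1.17.1 and matplotlib 3.10.9 were used, and the recomputed adjustments were tested on simulated data. CPM is a gene's mean normalised count as a share of the RNA table's sum. Named genes were promoters within 1 Mb of the interval, the 15 largest changes each way with a mean of at least 100, up to 4 members of each list by adjusted p, the 10 largest changes in both assays each way and in opposite directions, the 10 largest RNA changes each way over flat promoters, and the 6 largest promoter changes each way without an RNA change. The text names some of these, chosen for known roles after their values were seen, with HERPUD1, added to complete a count, and ITPR2 from outside the rule. The members and the gene lists were chosen with earlier results of these data known.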

Additional observations from a re-analysis of the deposited data

How the results depend on the processing

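The alternatives were computed from the deposited fold changes, SE and Wald statistics. Of the 2879 called promoter peaks, 504 were called against a 1.5-fold change, 478 with scaled statistics (the robust SD of the Wald statistics was 2.46 for peaks and 1.70 for genes), 1115 with Holm adjustment and 1778 without the stretches of shifted local median, the last an alternative chosen after seeing the data. The share called higher among them was 41.6% in the first place, 61.9% against 1.5-fold and 59.8% with scaled statistics. The 540 promoter peaks changed by at least 1 log2 unit became 328 with a minimum mean of 100, 242 with scaled statistics, 353 where the peak had to overlap an annotated start and 300 without shifted stretches. The 1690 genes with changed RNA became 326 against 1.5-fold, 369 with scaled statistics, 509 with Holm adjustment and 1122 without shifted stretches. The 764 genes called in the same direction became 104 against 1.5-fold and 104 with scaled statistics, 506 with local centring, 217 with Holm adjustment and 317 without shifted stretches. The 99 genes called in opposite directions became 35 at an adjusted p under 0.01, 156 at 0.1, 1 against 1.5-fold, 0 with scaled statistics and 4 with Holm adjustment. The 117 called promoters of the gene lists became 15 against 1.5-fold, 22 with scaled statistics, 50 with Holm adjustment and 75 without shifted stretches. Fewer peaks or genes enter without shifted stretches, and a higher threshold makes fewer calls by construction; the cause of the other differences was not tested.

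Among the named promoter peaks and genes, local centring ended 93 calls, added 8 and turned 7, and 277 did not move across the threshold. The 7 promoters turned to -0.34 for GINS4, -0.29 for MIR3178, -0.13 for MYBL1, -0.43 for RHOBTB2, -0.25 for SRRM2-AS1, -0.38 for TTK and -0.27 for ZNF263. All 7 had been called higher. Over the 922 promoters with a local median at least 0.2 higher, the median after centring was -0.16. Such turns need therefore not be particular to the gene. Local centring kept 1785 of the 2879 called promoter peaks (62.0%) among 2598 called. The SE of the local median was not added. No paired analysis was possible because the tables hold no values per library, and for the same reason edgeR, DESeq2 size factors and the leaving out of a library were not run. Peaks with a mean under 100 had a median SE of 0.35 log2 units at promoters, so changes of that size were not detectable there.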

Other observations

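Some of the promoters with the largest changes belong to genes known to be imprinted. Such genes are read mainly from 1 parental copy, in some cases only in some tissues or from some of their promoters. The list of 20 such genes used here was written after these values were seen, so its counts are a description. Of the 20, 12 had a promoter peak, 16 peaks in all, of which 8 were called and 6, at 4 genes, changed by at least 1 log2 unit. Of all promoter peaks 34.2% were called, and 3.85% were called higher and 2.57% lower by at least 1 log2 unit. L3MBTL1 fell from a fitted count of 1658 to 31.7, as given above. ZNF331, a zinc finger gene, fell at both of its promoter peaks, from 612 to 250 and from 251 to 91.2 (log2 fold changes -1.29 and -1.46 in the authors' deposited table), and its RNA fell by 0.98 log2 units, on a stretch with a local median of -0.04. The peak shared by NAA60 and ZNF597 rose from 3.91 to 475, while the second NAA60 peak went from 313 to 643, in a stretch with a local median of 1.11. At GNAS, the gene of a stimulatory G protein subunit, a weak upstream promoter peak rose from 17.5 to 72.4, the antisense promoter of GNAS-AS1 fell from 347 to 235, and the main promoter peak had 796 and 683 and was not called. Promoters of RB1, the retinoblastoma gene, UBE3A, a ubiquitin ligase, BLCAP and INPP5F were not called. Neither methylation of these promoters nor the parental copy the reads came from was analysed here.

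Promoters of T cell genes offer a second point for follow-up. CD28, the co-stimulatory receptor of T cells, had fitted promoter counts of 309 and 577 in a B cell line, and its RNA went from 9.25 to 120. TCF7, a T cell transcription factor, had a second promoter peak at 18.7 and 262 with RNA at 0.376 CPM that was not called. T and NK cell markers had 4 promoter peaks, 2 of them called higher (CD28 and NKG7). Of 3 genes of the list with tested RNA, 1 was called higher, CD28. RNA of NKG7 was not called, and its promoter peak was weak, with a mean of 89.1. CD28 lies on chromosome 2 between 200 and 220 Mb, where the non-promoter peaks had a median log2 fold change of 0.30.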
